A study of Mus musculus with 24 samples.

Results

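The potassium channel family is described here without the BK channel. Its members are the genes whose symbol starts with Kcn, found through the RefSeq identifier of each probe, leaving out Kcnma1, Kcnmb1 to Kcnmb4, Kcnj13, Kcne2 and the noncoding Kcnq1ot1. They are 86 of the 19751 genes named on the array, measured by 113 probes. Where a gene had several probes, as 26 members did, the brightest stood for it. All are channel subunits or their auxiliary proteins except Kcnmb4os1, a noncoding antisense RNA that the symbol brings in, and Kcne1l is the older symbol of Kcne5. Kcng2 and Kcnk7 had no probe.

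Potassium channels let potassium ions cross the membrane and so set the resting potential of neurons, end their action potentials and limit how often they fire. Voltage-gated, calcium-activated, inwardly rectifying and two-pore channels are built from different pore subunits, and auxiliary subunits change how the pores open and reach the membrane. In the hippocampus they shape dendritic signals and repetitive firing of pyramidal cells, and glial channels take up potassium from the extracellular space.

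The study asked whether a paternal diet rich in methyl donors changes the brain and behavior of offspring, and measured hippocampal RNA in 2 generations. There were 24 one-color arrays, each with RNA pooled from 4 mice. Fathers ate a control diet (CD) or a methyl donor diet (MD) with added methionine, choline, betaine, folic acid, vitamin B12 and zinc for 6 weeks before mating, and the offspring themselves ate the control diet. The CD F1 and MD F1 groups (6 arrays each) were offspring of C57BL/6J fathers and 129S6/SvEv mothers, which the labels call congenic hybrids. The CD F2 and MD F2 groups (6 arrays each), called mixed hybrids of the same strains, came from F1 sons of CD or MD fathers mated with F1 females of CD fathers, so the diet was the grandfather's. The labels give an age of 4 weeks for all groups, while the paper calls the mice adult. The arrays of a generation filled 3 slides, and every slide held 2 arrays per diet. The generations shared no slide and were scanned separately, so generation and slide cannot be told apart. No F2 array lay within the F1 range of the sex measure described below, so generation cannot be told apart from that measure either.

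All 10 markers of hippocampal principal neurons were well above background on all 24 arrays. Between 27383 and 37013 spots per array were well above background, with the fewest on replicate 6 of CD F2 (28000) and on replicate 3 of MD F2 (27383). Of the 86 members, 67 to 82 were well above background on an array. On every array there were 66, and Kcne1, Kcnj1 and Kcnk18 were not well above it on any. Of the 20 members short of all arrays, 18 were dim on at least 1 array and 2 (Kcnab1 and Kcnk4) were missing only where their spot was marked as irregular. Levels below are log2 signals normalized within a generation, apart from the mean levels of member probes. Those are averages over all 24 arrays normalized together. Levels of different probes cannot be compared, so each range only shows how far a set of probes spread.

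In F1, limma called 0 members different between MD F1 and CD F1 at an FDR (adjusted p) under 0.1, against 0.0330% of all probes, which were 13. The number called changed when single arrays were left out. There were 152 probes called without MD F1 replicate 6, 34 without MD F1 replicate 1 and 5 without CD F1 replicate 6. Without any one of the other F1 arrays there were 0, as with the slide as a block. At an unadjusted p under 0.05, 8 members were lower in MD F1 (9.30%), beside 7.48% of all probes and 5.54% of the brightest probes per gene. Another 5 were higher (5.81%), beside 6.96% and 7.82%. The median log2 fold change of the 86 members was -0.04 and that of all probes 0.01, with 49 members below 0 and 37 above. The members' median was -0.014 without MD F1 replicate 5, -0.059 without MD F1 replicate 1, -0.056 without MD F1 replicate 4 and -0.054 without CD F1 replicate 3. The lower ones were Kcnj2, Kcnb2, Kcnh5, Kcnk12, Kcnab2, Kcnip2, Kcnip4 and Kcnv2, and the higher ones Kcnf1, Kcnh3, Kcnq5, Kcnn2 and Kcnk5, of which Kcnv2 and Kcnk5 were dim, well above background on 5 and 14 arrays. These counts depended on the fit and the scaling. With all 24 arrays fitted together, 3 members were lower and 3 higher, beside 6.04% and 4.68% of all probes. That fit called Kcnj2 (limma, FDR 0.0839) among 73 probes. Without normalization between arrays the members' median was -0.32 and that of all probes -0.28. There, limma called 7952 probes, members among them, and at an unadjusted p under 0.05, 35.1% of all probes were lower and 0.223% higher. Members named with these counts, here and for F2 and the generations, include some chosen after their values were seen.

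In F2, limma called 0 members, and 0% of all probes. With all 24 arrays fitted together it called 0 members and 18 probes, and at an unadjusted p under 0.05 it had 1 member lower and 3 higher, beside 3.89% and 4.87% of all probes. At an unadjusted p under 0.05, 1 member, Kcnn4, well above background on 18 arrays, was lower in MD F2 (1.16%), beside 2.38% of all probes and 2.81% of the brightest probes per gene. Another 2, among them Kcnk10, were higher (2.33%), beside 3.22% and 2.84%. The higher count was 1 without CD F2 replicate 2 or 3 or MD F2 replicate 1, 2 or 4, 3 without CD F2 replicate 5 or 6 or MD F2 replicate 6, and 4 without MD F2 replicate 3. Over the 12 arrays left out in turn, 2.37% to 3.67% of all probes were higher and 1.71% to 3.32% lower. The lower count was 2 without CD F2 replicate 2 or MD F2 replicate 2. With the sex measure described below as a covariate, 6 members were lower and 4 higher in F2, beside 3.21% and 3.97% of all probes. The median log2 fold change was 0.05, and that of all probes 0.01. Without normalization between arrays these medians were -0.017 and -0.037. The members' median was 0.081 without CD F2 replicate 4 and 0.032 without CD F2 replicate 3.

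The difference between the diet effects of the generations was tested directly. limma called 0 members for it, and 0.0127% of all probes. At an unadjusted p under 0.05, 5 members (Kcnj2, Kcnj3, Kcnh5, Kcnh7 and Kcnk10) had a lower diet effect in F1 than in F2 (5.81%), beside 4.59% of all probes and 3.45% of the brightest probes per gene, and 1, Kcne4, had a higher one (1.16%), beside 3.70% and 4.54%.

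Values of MD F1 and CD F1 arrays did not overlap for 3 members. Kcnj2 lay below (1 member, 1.07% of all probes), and Kcnf1 and Kcnn2 lay above (2 members, 0.713% of all probes). In F2 there were 0 such members below and 0 above, beside 0.127% and 0.238% of all probes, and 3 members at an unadjusted p under 0.05 by limma.

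**Figure D1:**
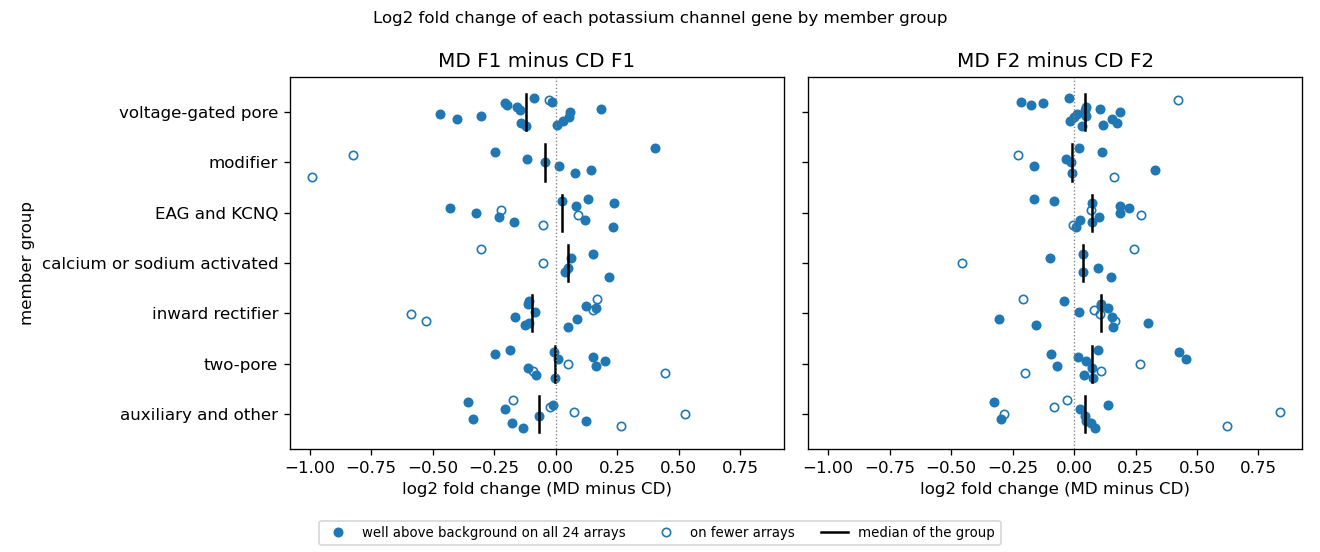
Log2 fold change (MD minus CD) of each of the 86 members in F1 and in F2, by member group, with filled points for probes well above background on all 24 arrays, open points for the others and a black line at the group's median. In F1 the medians lay between -0.12 and 0.05 and in F2 between -0.01 and 0.11, and without normalization between arrays the median of all F1 probes moved to -0.28.

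The pore subunits of voltage-gated channels (Kcna, Kcnb, Kcnc and Kcnd) numbered 17, of which 16 were well above background on every array. Mean levels ran from 3.70 to 14.13 over the 8 Kcna probes, from 11.09 to 12.50 over the 4 Kcnc and from 9.82 to 13.32 over the 3 Kcnd probes. The group's median log2 fold change was -0.12 in F1 and 0.04 in F2. At an unadjusted p under 0.05, 1 of the 17 was lower in F1 (Kcnb2, a delayed rectifier subunit). That was 5.88%, beside 7.48% of all probes, and 0 were higher, beside 6.96%. In F2, 0 were lower, beside 2.38% of all probes, and 1 was higher (5.88%), beside 3.22%.

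Among these pores, Kcna1, a subunit of axonal low-threshold channels, had signals of 13.53 to 13.98 (median 13.86) in CD F1 and 13.46 to 14.31 (median 13.60) in MD F1. Kcna2, which joins it in the same channels, had 9.44 to 9.77 (median 9.55) and 9.27 to 10.03 (median 9.52). The ranges of the diets overlapped for both genes. Kcnc1, a subunit of channels of fast-spiking neurons, had 12.14 to 12.44 (median 12.34) in CD F1 and 10.51 to 12.44 (median 12.29) in MD F1, where replicate 6 was the low array. Kcnd2, which carries the A-type current of dendrites, had 13.42 to 13.47 (median 13.45) and 13.00 to 13.62 (median 13.54), and MD F1 replicate 5 was the lowest.

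Kcna4, a pore subunit of a fast inactivating current, had signals of 11.47, 11.62 and 11.91 (lowest, median and highest) in CD F2 and 11.38, 11.45 and 11.66 in MD F2, which made a difference of -0.17 on the log2 scale (limma, FDR 0.892; exact permutation test, p = 0.0346). There, 4 of 6 MD F2 arrays lay below all CD F2 arrays, and the groups overlapped.

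The modifier subunits (Kcnf, Kcng, Kcns and Kcnv), which form no channel alone and change those of other subunits, numbered 9, with 7 well above background on every array. Kcnf1 was measured by 2 probes, and its brightest had the F1 groups apart. Mean levels ran from 4.71 to 10.90 over the 3 Kcng probes, from 7.13 to 9.83 over the 3 Kcns and from 2.76 to 10.33 over the 2 Kcnv probes. The median log2 fold change was -0.04 in F1 and -0.01 in F2.

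Kcnf1 had signals of 9.96, 10.15 and 10.39 in CD F1 and 10.40, 10.48 and 11.06 in MD F1. MD minus CD came to 0.40 on the log2 scale (limma, FDR 0.221; exact permutation test, p = 0.00216, the smallest the test can give). All 6 MD F1 arrays lay above all CD F1 arrays, MD F1 replicate 6 being the highest. Within the 3 slides it was 0.55, 0.21 and 0.46, and over the alternatives it ranged from 0.14 to 0.45 with an FDR between 0.161 and 0.560. The other Kcnf1 probe had 6.66, 6.85 and 7.02 in CD F1 and 6.73, 6.78 and 7.12 in MD F1, with overlapping groups and a difference of -0.00 (log2), so the probes of the gene disagreed. In F2 the brightest probe had a log2 fold change of 0.02 (limma, FDR 0.999).

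The EAG and KCNQ channels (Kcnh and Kcnq) numbered 13, with 10 well above background on every array. Mean levels ran from 4.37 to 14.26 over the 8 Kcnh probes. The median log2 fold change was 0.03 in F1 and 0.07 in F2, and 1 of the 13 was lower (7.69%) and 2 were higher (15.4%) in F1 at an unadjusted p under 0.05, beside 7.48% and 6.96% of all probes. Kcnq3, a subunit of the channels of the M current, which restrains repetitive firing, had 7.93 to 8.29 (median 8.16) in CD F1 and 7.74 to 8.11 (median 8.03) in MD F1, and the diets overlapped.

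Kcnh5, an EAG channel, had signals of 7.31, 7.78 and 7.94 in CD F1 and 6.57, 7.41 and 7.60 in MD F1. In F2 they were 7.41, 7.77 and 8.08 in CD F2 and 7.77, 8.05 and 8.20 in MD F2. MD F1 replicate 6 was the lowest array, and the diets overlapped in both generations. In F2 the diets differed by 0.22 on the log2 scale (limma, FDR 0.911; exact permutation test, p = 0.0844), and the diet effect of F1 minus that of F2 was -0.67 (limma, FDR 0.404).

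The Kcnn, Kcnt and Kcnu genes numbered 7. They encode channels activated by calcium or sodium, except Kcnu1, which encodes a channel gated by pH and voltage and is plotted with them. There were 5 well above background on every array. Mean levels ran from 2.14 to 13.37 over the 4 Kcnn, from 8.09 to 10.40 over the 2 Kcnt probes and were 9.38 for Kcnu1. Kcnn1 was well above background on 3 arrays, so its own fold change is not given, though it enters the median and the plot of fold changes by member group. The median log2 fold change was 0.05 in F1 and 0.04 in F2. Kcnt1, a sodium-activated channel, had 10.71 to 11.20 (median 10.91) in CD F1 and 10.85 to 11.06 (median 11.03) in MD F1.

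Kcnn2, a small-conductance calcium-activated channel that shapes the afterhyperpolarization, had signals of 13.84, 13.95 and 13.98 in CD F1 and 14.03, 14.08 and 14.18 in MD F1. This was a log2 fold change of 0.15 (limma, FDR 0.255; exact permutation test, p = 0.00216) and of -0.058 without normalization between arrays, where the median of all F1 probes was -0.28. All 6 MD F1 arrays lay above all CD F1 arrays after normalization. Within the slides it was 0.14, 0.16 and 0.15, and in F2 the log2 fold change was 0.03 (limma, FDR 0.996).

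The inward rectifiers (Kcnj) numbered 14, with 10 well above background on every array and mean levels from 1.53 to 14.23. Their median log2 fold change was -0.10 in F1 and 0.11 in F2, and by limma 1, Kcnj2, was lower at an unadjusted p under 0.05 in F1 (7.14%, beside 7.48% of all probes), 0 higher (6.96% of all probes), and 0 in F2 either way.

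Kcnj2 encodes a strong inward rectifier that helps to hold the resting potential. Its probe lay close to the background, well above it on all F1 arrays and on 5 of 6 arrays of each F2 group. Its signals were 5.29, 5.48 and 5.73 in CD F1 and 4.47, 4.98 and 5.06 in MD F1. The diets differed by a log2 fold change of -0.59 (SE 0.113; limma, FDR 0.153; exact permutation test, p = 0.00216), with all 6 MD F1 arrays below all CD F1 arrays and MD F1 replicate 6 the lowest. Without that array it was -0.50 and passed the threshold (FDR 0.0842), as did 152 probes in place of 13. Kcnj2 also passed with dim probes left out (FDR 0.0997, among 44 probes called) and with all 24 arrays fitted together (FDR 0.0839, among 73). Without normalization between arrays its FDR was 0.0581, among 7952 probes called. Over all alternatives its log2 fold change lay between -0.99 and -0.20 and the FDR between 0.0581 and 0.368. Within the slides it was -0.87, -0.39 and -0.51, and blocking on the slide gave an FDR of 0.217. The study listed Kcnj2 from these F1 samples, so its F1 difference is not independent evidence.

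In F2, Kcnj2 had signals of 4.19, 4.75 and 5.10 in CD F2 and 4.50, 4.88 and 5.02 in MD F2. The log2 fold change was 0.11 (limma, FDR 0.958; exact permutation test, p = 0.494) and -0.040 without normalization between arrays, where the median of all F2 probes was -0.037. The groups overlapped, with replicate 3 of CD F2 and replicate 6 of MD F2 the lowest of their groups. Those arrays had sex measures, described below, of -7.57 and -7.43, and CD F2 replicate 5 (-7.66) was the only other F2 array below 0. Over all alternatives, the sex measure as a covariate among them, the log2 fold change of Kcnj2 lay between -0.040 and 0.199. The FDR was at least 0.844. Within the slides it was 0.05, -0.20 and 0.47. The diet effect of F1 minus that of F2 was -0.72 (SE 0.183; limma, FDR 0.300), so the difference between the generations did not pass the test.

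Kcnj3, Kcnj6 and Kcnj9 form the channels that G proteins open. Kcnj6 had 8.36 to 8.65 (median 8.54) in CD F1 and 8.19 to 8.52 (median 8.46) in MD F1. Kcnj9 had 11.94 to 12.23 (median 12.11) and 11.89 to 12.29 (median 12.18), with overlapping diets. Kcnj3 had 9.27, 9.43 and 9.60 in CD F1 and 8.97, 9.27 and 9.57 in MD F1, then 8.21, 8.44 and 8.69 in CD F2 and 8.52, 8.61 and 8.73 in MD F2. Its log2 fold change in F2 was 0.16 (limma, FDR 0.912; exact permutation test, p = 0.0606), and the diet effect of F1 minus that of F2 was -0.32 (limma, FDR 0.499). The diets overlapped in both generations.

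A second Kcnj3 probe, chosen after its values were seen, had signals of 8.14, 8.40 and 8.71 in CD F1 and 6.67, 7.87 and 8.004 in MD F1. Its log2 fold change was -0.75 (limma, FDR 0.208; exact permutation test, p = 0.00216), and all MD F1 arrays lay below all CD F1 arrays. The brightest probe of Kcnj3 overlapped between the diets, so the probes differed in size.

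Kcnj10, the main inward rectifier of astrocytes, had 13.96 to 14.28 (median 14.13) in CD F1 and 13.80 to 14.25 (median 14.00) in MD F1. Kcnj11, the pore of ATP-sensitive channels, had 8.38 to 8.73 (median 8.53) and 8.27 to 8.65 (median 8.45). The diets overlapped for both genes.

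The two-pore channels (Kcnk), which carry background current, numbered 13, with 10 well above background on every array and mean levels from 1.47 to 12.72. Their median log2 fold change was -0.00 in F1 and 0.07 in F2. Kcnk1 had 12.78 to 13.16 (median 12.84) in CD F1 and 11.83 to 13.03 (median 12.83) in MD F1, replicate 6 being the low array of MD F1. Kcnk2, a channel opened by stretch, had 8.48 to 9.43 (median 8.85) and 8.26 to 9.98 (median 9.08). Kcnk9, an acid-sensitive channel, had 5.62 to 6.10 (median 5.90) and 5.71 to 6.34 (median 5.83). The diets overlapped for all 3 genes. Kcnk4, chosen after its values were seen, had probes of opposite sign in F1, with log2 fold changes of -0.09 for the brightest (limma, FDR 0.643) and 0.28 for the other (FDR 0.307), and overlapping diets for both.

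Kcnk10, a stretch-sensitive channel like Kcnk2, had signals of 10.28, 10.73 and 11.07 in CD F2 and 10.96, 11.11 and 11.29 in MD F2. The log2 fold change was 0.43 (limma, FDR 0.890; exact permutation test, p = 0.00866), with 4 of 6 MD F2 arrays above all CD F2 arrays and CD F2 replicates 4 and 6 the lowest. Within the slides it was 0.43, 0.74 and 0.10. In F1 the log2 fold change was -0.01 (limma, FDR 0.982), and the diet effect of F1 minus that of F2 was -0.45 (limma, FDR 0.450).

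**Figure D2:**
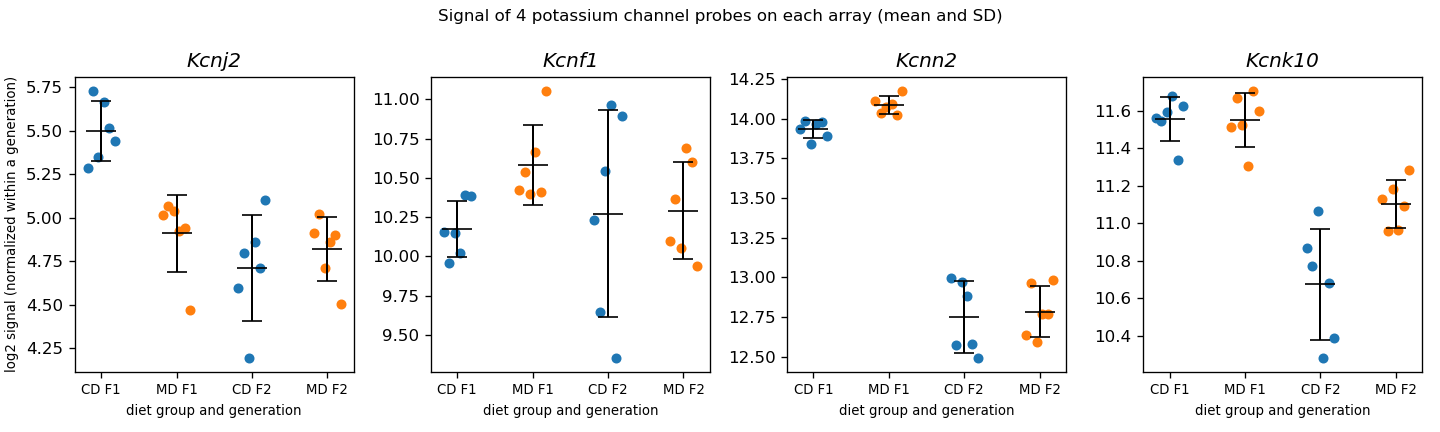
Log2 signal of Kcnj2, Kcnf1, Kcnn2 and Kcnk10 on each array of the 4 groups (points), with the mean and SD. In F1 the Kcnj2 arrays of MD lay below those of CD (highest 5.06 against lowest 5.29), those of Kcnf1 and Kcnn2 lay above, and the F2 groups overlapped for all 4 genes. Without normalization between arrays Kcnn2 in F1 was -0.058, where the median of all F1 probes was -0.28.

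Auxiliary subunits (Kcnab, Kcne and Kcnip, with Kcnrg and Kcnmb4os1) numbered 13, with 8 well above background on every array. Mean levels ran from 7.49 to 12.88 over the 3 Kcnab, from 1.32 to 9.22 over the 4 Kcne and from 8.69 to 14.20 over the 4 Kcnip probes. The median log2 fold change was -0.07 in F1 and 0.04 in F2, and 3 were lower in F1 at an unadjusted p under 0.05 (Kcnip2, Kcnip4 and Kcnab2). That was 23.1% of the group, beside 7.48% of all probes and 5.54% of the brightest probes per gene, a difference that was not tested. A second Kcnip4 probe, chosen after its values were seen, was well above background on all 24 arrays. Its log2 fold change in F1 was -0.002 (limma, FDR 0.993), so the count of 3 holds for the brightest probes only.

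Kcnip2, a calcium-binding partner of Kcnd pores, had signals of 9.46, 9.58 and 9.71 in CD F1 and 8.78, 9.31 and 9.51 in MD F1. Its log2 fold change was -0.33 (limma, FDR 0.255; exact permutation test, p = 0.00649), with 4 of 6 MD F1 arrays below all CD F1 arrays and MD F1 replicate 5 the lowest. Within the slides it was -0.26, -0.72 and -0.03. Kcnab2, a cytoplasmic beta subunit of Kcna channels, had 6.39, 6.65 and 6.79 in CD F1 and 5.73, 6.34 and 6.52 in MD F1, which made a difference of -0.36 on the log2 scale (limma, FDR 0.264; exact permutation test, p = 0.0152). There, 4 of 6 MD F1 arrays lay below all CD F1 arrays, and replicate 6 was the lowest. Without normalization between arrays both passed the threshold, but there the median of all F1 probes was -0.28 and 7952 of 39429 probes were called, and the FDR over all alternatives reached 0.642 for each.

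Kcnab1, the other beta subunit named here, had 12.85 to 13.19 (median 13.06) in CD F1 and 12.42 to 13.22 (median 12.89) in MD F1. Kcnip3, also a Kcnd partner, had 14.18 to 14.47 (median 14.36) and 14.25 to 14.84 (median 14.41), and the diets overlapped for both. Its second probe, chosen after its values were seen and well above background on 22 arrays, had 5.51 to 5.73 (median 5.71) and 5.01 to 5.44 (median 5.41), a log2 fold change of -0.32 (limma, FDR 0.202; exact permutation test, p = 0.00216). Those groups did not overlap. The brightest probe had a log2 fold change of 0.12 (FDR 0.555), so the probes disagreed in sign.

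Kcne4, which inhibits some Kcna and Kcnq channels, had signals of 5.95, 6.24 and 6.92 in CD F1 and 6.18, 6.82 and 7.86 in MD F1. In F2 they were 4.12, 4.73 and 5.63 in CD F2 and 4.16, 4.58 and 4.76 in MD F2, well above background on 5 of 6 arrays of each. The diets overlapped in both generations, and the diet effect of F1 minus that of F2 was 0.82 (limma, FDR 0.548).

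Partners of potassium channels gave 17 of 17 genes, all well above background on every array. limma called 0 of them in F1 and F2. At an unadjusted p under 0.05, 3 were lower and 0 higher in F1, and 0 lower and 1 higher, Dlg4, in F2. Of all probes, 7.48% were lower in F1 and 3.22% higher in F2, and of the brightest probes per gene 5.54% and 2.84%. The 3 were Abcc9, the regulatory subunit of ATP-sensitive channels (log2 fold change -0.37), Cntn2, an adhesion protein beside the axonal Kcna channels (-0.35), and Dlg1, a scaffold that binds channel tails (-0.31), and the median of the list was -0.10 in F1 and 0.04 in F2. Potassium transport, from the sodium pump and cation-chloride cotransporters, gave 9 of 10 genes. limma called 0 of them, with 0 at an unadjusted p under 0.05 in either generation. Slc12a7 (log2 fold change 0.16) and Atp1b3 (0.11) were among the 3 that ranked first by p in F1. The list had medians of -0.04 in F1 and -0.03 in F2.

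Other measures of the arrays differed between the diets beside these values. The mean level of 8 astrocyte markers, of which Slc1a3 was the brightest, was 12.91 in CD F1 with an SD of 0.044 and 12.70 in MD F1 with an SD of 0.106 (n = 6 each; exact permutation test, p = 0.00216, adjusted over 18 tests 0.0390). Slc1a2 (log2 fold change -0.62), Gfap (-0.35) and Gjb6 (-0.25) lay farthest from 0, while the other 5, Slc1a3 included, lay between -0.11 and -0.08. The median of the list was -0.11, as for interneurons (-0.11) and oligodendrocytes (-0.11), and -0.10 for principal neurons. Principal neuron markers were 12.16 (SD 0.048) and 12.08 (SD 0.064; n = 6 each; exact permutation test, p = 0.0303, adjusted 0.273), and no other marker list of the remaining 7 had an adjusted p under 0.1 in either generation. Fewer cells of a type and less RNA per cell cannot be told apart in bulk tissue. Choroid plexus markers varied most, with a mean of 10.49 and an SD of 2.48 over CD F2, and 8.46 and 1.70 over MD F2 (n = 6 each; exact permutation test, p = 0.136). The median intensity before normalization was 280.4 in CD F1 and 226 in MD F1 (means of 6; exact permutation test, p = 0.0173). The sex measure, the mean signal of 4 Y-linked genes minus Xist, was -2.03 in CD F1 and -1.29 in MD F1 (exact permutation test, p = 0.0498). MD F1 replicate 6, the lowest array for Kcnj2 and Kcnab2 and the highest for Kcnf1, had a median intensity of 167 (other F1 arrays 201 to 318) and a sex measure of 0.16 (other F1 arrays -2.30 to -0.78). In F2 the sex measure was -7.66 to -7.43 on 3 arrays, CD F2 replicates 3 and 5 and MD F2 replicate 6. On the other 9 it was 5.23 to 7.26. The F2 diets were thus not balanced on it, and all F1 arrays lay between these 2 ranges. The part of these measures in the members' values was not tested, apart from the sex measure as a covariate, with which Kcnj2 in F1 had a log2 fold change of -0.44 (FDR 0.343, where the alternatives ranged from 0.0581 to 0.368).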

How the data were processed

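Hippocampal RNA of both diets and generations was measured on 6 Agilent one-color arrays per group. The deposited files hold linear spot intensities from Agilent Feature Extraction 10.7.3.1, which had subtracted the background and removed spatial trends on each array. Arrays had not been scaled to each other. Another table, with intensities that the authors had quantile-normalized within each generation, served as an alternative. The 43020 non-control spots hold 39429 probes, of which 26055 matched 19751 symbols through RefSeq identifiers.

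Spots marked as irregular (1939 in F1, 2097 in F2) were left out, log2 intensities were quantile-normalized between arrays, and the spots of a probe were averaged. Normalization was within a generation, or across all 24 arrays for the comparison of generations and the mean levels of member probes. The order of these steps was chosen after all 3 orders had been run and their results seen. It is the usual one in limma, and its 13 calls over all F1 probes were known to equal an earlier result of these data. Averaging before normalization gave 11 calls, and leaving out irregular spots after normalization gave 12. In all 3 orders 0 members were called, with 13, 12 and 13 members at an unadjusted p under 0.05 in F1.

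Group means were fitted with limma 3.58.1 (R 4.3.3) over all probes with values on at least 2 arrays per group, with Benjamini-Hochberg adjustment over all probes and a call at an FDR under 0.1. Single values were compared with two-sided exact permutation tests over the 924 divisions of 12 arrays. The members and lists were chosen with earlier results of these data known.

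Genes were named by a rule: Kcnj2; a list of genes of well-known hippocampal potassium currents, given by their levels; the 5 members with the smallest p in each comparison among those well above background on every array of a group; members with a called probe (0); members whose bright probes differed in sign in F1; and up to 3 genes of each other list. Some genes that the rule names are not described. Alternatives changed the normalization, background correction (normexp on the median signal, since the files hold no mean signal), dim probes, irregular spots, slide, replicate number, sex measure, F2 label code, probe per gene, threshold, source of values, arrays fitted and order of steps. Precision is limited by the number of arrays.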

Additional observations from a re-analysis of the deposited data

Results flagged for a closer look

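Single arrays lay far from the other 5 of their group in 15 of the 124 sets of 6 values examined, where chance flags about 1 in 20 groups. Each set held 1 named member or 1 measure of the arrays in 1 group, and sets that share an array are not independent.

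MD F1 replicate 6 was low for Kcnj2 (4.47), Kcnc1 (10.51), Kcnk1 (11.83) and Kcnh5 (6.57). It also had the lowest median intensity of the F1 arrays (167, others 201 to 318) and the only F1 sex measure above 0 (0.16). In the same group, replicate 5 was low for Kcnd2 (13.00) and replicate 1 high for Kcnk9 (6.34). In CD F1, replicate 5 was high for Kcnk1 (13.16) and low for Kcnn1 (1.46), whose probe was not well above background on most arrays.

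In MD F2, replicate 6 was low for Kcna2 (9.89) and replicate 2 for Kcnj9 (10.59). The sex measure of MD F2 replicate 6 was -7.43, against 5.23 to 7.26 on the other 5 arrays. CD F2 replicate 6 had 28000 spots and 67 members well above background, and MD F2 replicate 3 had 27383 spots and 70 members. The causes were not tested.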

How the results depend on the processing

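Over the alternatives, Kcnj2 in F1 kept its sign, with log2 fold changes from -0.99 to -0.20 and an FDR from 0.0581 to 0.368. The causes of the changes below were not tested unless stated.

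Without normalization between arrays, the median of all F1 probes shifted to -0.28 and that of the members to -0.32. Then 23 members and 7952 of all 39429 probes were called in F1, and 39 members were lower and 0 higher at an unadjusted p under 0.05, against 35.1% and 0.223% of all probes. Kcnj2 was -0.99 in F1 and -0.040 in F2, Kcnn2 in F1 was -0.058, and 0 members were higher in F2 (0.279% of all probes). Kcnip2 (-0.63, FDR 0.0719, over all alternatives up to 0.642) and Kcnab2 (-0.74, FDR 0.0735, up to 0.642) passed the threshold.

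Shares in parentheses are those of all probes at an unadjusted p under 0.05. Scaling to the 75th percentile left 3 members higher in F1 (4.97%). With normexp, 0 members were lower (2.41%) and 1 was higher (2.85%) in F2. With dim probes left out, 1 member was called in F1, Kcnj2 (-0.59, FDR 0.0997), among 44 of 30890 probes. With all 24 arrays fitted together, 1 was called (Kcnj2, -0.62, FDR 0.0839) among 73 of 39423 probes, and 3 were lower (6.04%) and 3 higher (4.68%) in F1. With the sex measure as a covariate, 3 were higher in F1 (4.76%), and 6 were lower (3.21%) and 4 higher (3.97%) in F2. With the replicate block, 1 was higher in F2 (2.54%). Deviations from the group means on arrays of equal replicate number had correlations of -0.17 to 0.20 between the diets. With so few arrays per group, these cannot decide whether the numbers pair arrays. Without both dim F2 arrays, an alternative chosen after seeing the data like those on the order of steps, 5 were higher in F2 (3.16%).

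With each array left out in turn, 0 to 1 members were called in F1, the 1 being Kcnj2 without MD F1 replicate 6 (FDR 0.0842, among 152 of 39429 probes called), and Kcnj2 in F1 lay between -0.63 and -0.50. In F2, 1 to 2 members were lower and 1 to 4 higher, beside 1.71% to 3.32% and 2.37% to 3.67% of all probes. The F2 label code was tried in F2 only, and the comparison of generations was not run on the authors' table. Kcnj2 and other dim probes are limited by signal over background.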
